A study of Homo sapiens with 2 samples.

Results

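The 10 genes described here encode glutathione peroxidases, selenoproteins of other families and the enzyme that activates selenium. They were taken by symbol from gene tables that list 57820 genes, and all 10 were found: GPX1, GPX2, GPX3, GPX4, SEPP1 (selenoprotein P, now SELENOP), SEPW1 (SELENOW), SELM (SELENOM), DIO1, DIO3 and SEPHS2. The tables come from poly(A)-selected, stranded RNA-seq of unmodified, wild-type HepG2 and SKHEP1 cells, each line having a single library. The study set these liver cancer lines side by side to examine the long noncoding RNA PURPL and its transcript variants. The cell type label is hepatocellular carcinoma for HepG2 and endothelial cells for SKHEP1, and both lines were grown in DMEM with fetal bovine serum and antibiotics. The selenium content of the medium is not given in the sources used here. With 1 library per line no difference between the lines has a replicate check, and no test was made.

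Selenoproteins contain selenocysteine, an amino acid built on its own tRNA and inserted at a UGA codon that would otherwise stop translation. Insertion needs a stem-loop in the 3′ untranslated region of the mRNA, a protein that binds this loop and a dedicated elongation factor. Most glutathione peroxidases use selenocysteine to reduce peroxides with glutathione. Hepatocytes make selenoprotein P and secrete it into the plasma, where it carries selenium to other organs.

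The selenocysteine codon is the feature that all 10 genes share. GENCODE release 29 (GRCh38) marks it in each of them, and the coding sequence around the first such codon is shown for every gene because it sets them apart from ordinary mRNAs. Each stretch holds 27 bases of the coding strand, with the in-frame TGA in capitals.
GPX1: gtggcgtccctcTGAggcaccacggtc
GPX2: gtggcttcgctcTGAggcacaaccacc
GPX3: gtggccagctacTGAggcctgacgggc
GPX4: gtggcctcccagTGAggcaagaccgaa
SEPP1: cttcaagccagcTGAtacctgtgcata
SEPW1: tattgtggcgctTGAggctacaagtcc
SELM: acctgcgggggaTGAcagctgaaccgc
DIO1: ggaagttgtaccTGAccttcatttatg
DIO3: ggcagctgcaccTGAccaccgttcatg
SEPHS2: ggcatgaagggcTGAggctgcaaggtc

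The 4 glutathione peroxidases opened alike in these stretches, with gtggc, and in each of them the TGA was followed by ggc. GPX1 and GPX2, both cytosolic enzymes, shared 21 of the 27 bases, whereas GPX2 and GPX3 shared 15. Of the 10 genes, 6 had GGC as the next codon. Among all 25 human selenoprotein genes, which include these 10, 9 had it. The position of the codon differed widely. It was codon 13 of 87 in SEPW1, codon 49 of 203 in GPX1, codon 40 of 190 in GPX2 and codon 73 of 197 in GPX4. SEPP1 stands apart with 10 selenocysteine codons, the first at codon 59 (chr5:42808177-42808179, minus strand) and the last at codon 378 of 381. The other 9 genes have 1 each.

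The libraries held 22477757 expected counts in HepG2 and 19940557 in SKHEP1. Expected counts are reads assigned to a gene by RSEM, and they were scaled to counts-per-million (CPM) for comparison between the lines. A gene at 0 counts was compared at a floor of 3 counts, equal to 0.135 CPM in HepG2 and 0.148 CPM in SKHEP1. The 95% intervals given cover counting error only. With 1 library per line they leave out variation between cultures and between libraries. PCR copies were not marked by molecular identifiers, so reads are not independent and even the counting error may be understated. The labels were checked against marker genes. All 6 hepatocyte markers reached 10 counts in HepG2, with a sum of 58713 CPM, against 1 of 6 and 89.9 CPM in SKHEP1. Of 8 endothelial markers, 3 reached 10 counts in each line, with sums of 2.70 CPM in HepG2 and 105 CPM in SKHEP1. They were VWF, TIE1 and ENG in HepG2, and TIE1, ENG and EGFL7 in SKHEP1. In SKHEP1 the endothelial genes CDH5 and KDR, which define that cell type, had 1 and 0 counts. ERG had 0, VWF 4, TEK 5 and TIE1 10, while ENG had 1926 and EGFL7 178. CDH5 and KDR thus do not bear out the label, and the list as a whole is mixed. Mesenchymal markers summed to 0.406 CPM in HepG2 and 7565 CPM in SKHEP1, most of it VIM (vimentin). Whether these marker differences have a part in the results was not tested.

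HepG2 expressed a set of selenoprotein genes that SKHEP1 had at 5 or fewer counts. SEPP1, GPX2, GPX3 and DIO1 were far higher in HepG2, with log2 ratios of 8.02 or more, those of GPX2 and DIO1 taken against the floor. SELM was higher in SKHEP1, and GPX1, GPX4, SEPW1 and SEPHS2 lay within 4-fold between the lines. DIO3 was under 10 counts in both libraries and was not compared. Of the 9 genes compared, 4 were thus at least 4-fold higher in HepG2, where 13.3% of the 15436 genes with 10 or more counts in either line were. In the other direction 1 of 9 was at least 4-fold higher in SKHEP1, against 16.6% of all genes compared, and 4 of 9 lay within 4-fold, against 70.1%. The median log2 ratio, HepG2 over SKHEP1, was 1.94 for the 9 genes and -0.03 for all genes compared. In bulk libraries such as these, fewer expressing cells and less RNA per cell cannot be told apart.

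**Figure D1:**
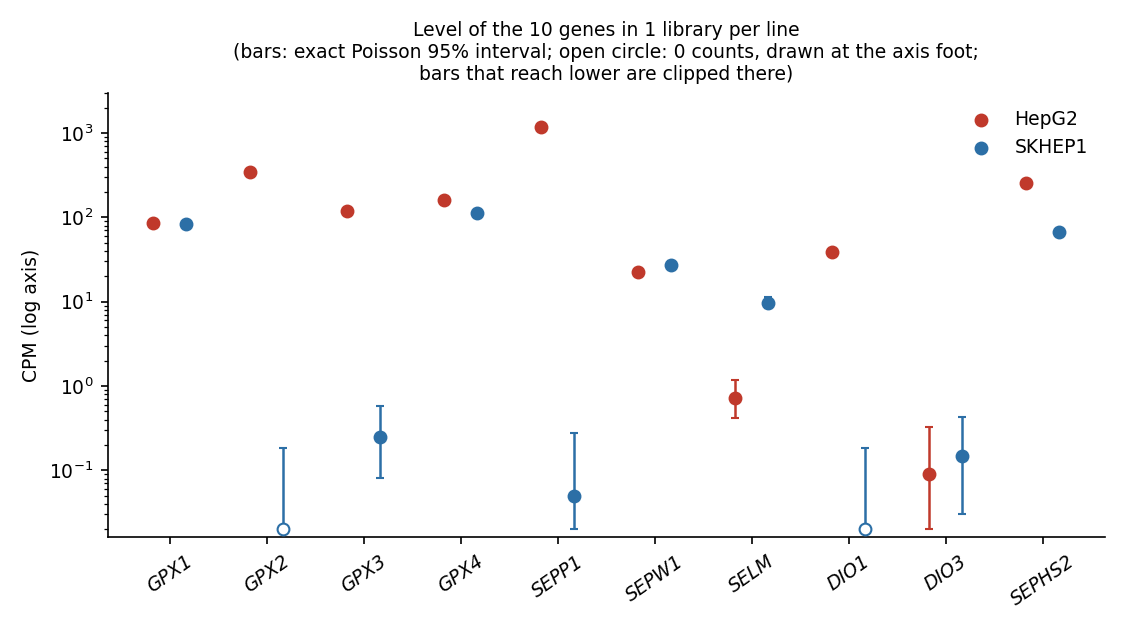
Level of each of the 10 genes in CPM on a log axis, HepG2 in red and SKHEP1 in blue, with 1 library per line and exact Poisson 95% intervals as bars. SEPP1, GPX2, GPX3 and DIO1 lie at 38.5 CPM or more in HepG2 and below 0.3 CPM in SKHEP1. GPX1 nearly coincides, at a ratio of 1.02, HepG2 over SKHEP1. GPX4 and SEPW1 lie close on this axis but differ, at 1.43 and 0.819.

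The genes for the secreted proteins showed wide gaps. SEPP1 had 25825 counts in HepG2 and 1 count in SKHEP1, or 1164 CPM in HepG2 (interval 1150 to 1178) and 0.0495 CPM in SKHEP1 (0.00125 to 0.276). The ratio was 23522, with a counting interval of 4221 to 929105 that is wide because of the single read in SKHEP1. By the deposited TPM values the SEPP1 ratio was 6417, with isoform-weighted lengths of 2185 bases in HepG2 and 738 bases in SKHEP1. On the per-length scale SEPP1 was the most abundant of the 10 genes in HepG2, at 898 TPM (transcripts-per-million) and rank 168 of all listed genes. GPX3, the plasma glutathione peroxidase, had 2657 counts in HepG2 and 5 in SKHEP1, or 120 CPM in HepG2 and 0.247 CPM in SKHEP1. It was 484-fold higher in HepG2 (207 to 1492). By the deposited TPM values the GPX3 ratio was 229, since its isoform-weighted length was 1605 bases in HepG2 and 882 bases in SKHEP1, the SKHEP1 length resting on 5 reads.

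The glutathione peroxidases that act inside cells had unlike ratios. GPX2, known as the gastrointestinal enzyme, had 7712 counts in HepG2 and 0 in SKHEP1. Its level was 348 CPM in HepG2 (340 to 355), and the exact upper limit for 0 counts in SKHEP1 was 0.183 CPM. Against the floor it was at least 2341-fold higher in HepG2, and the exact 95% lower limit was 1904. By the deposited TPM values with the same floor the log2 ratio of GPX2 was 10.87 in place of 11.19, just under the lower limit of 10.89. The listed length of GPX2 was 983 bases in HepG2 and 844.5 bases in SKHEP1, where it had no reads. GPX2 overlaps CHURC1 on the opposite strand, and CHURC1 had 699 counts in HepG2 and 907 in SKHEP1. Reads of CHURC1 therefore gave GPX2 no count in SKHEP1.

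GPX1 and GPX4 were expressed in both lines. GPX1, the main cytosolic peroxidase, had 1883 counts in HepG2 and 1675 in SKHEP1, equal to 84.9 CPM (81.1 to 88.8) in HepG2 and 82.9 CPM (79.0 to 87.0) in SKHEP1. These intervals overlap, and the ratio was 1.02 (0.958 to 1.09). The processed copy GPX1P1 had 6.71 counts in HepG2 and 0 in SKHEP1. GPX4 reduces phospholipid hydroperoxides in membranes and restrains ferroptosis, a form of cell death driven by lipid peroxidation. It had 3585 counts in HepG2 and 2284 in SKHEP1, or 162 CPM in HepG2 and 113 CPM in SKHEP1, and was 1.43-fold higher in HepG2 (1.36 to 1.51). On the per-length scale GPX4 was the most abundant of the 10 genes in SKHEP1, at 318 TPM, and the third in HepG2, at 453 TPM, behind SEPP1 and GPX2.

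The summed TPM of the selenocysteine glutathione peroxidases was 1399 in HepG2 and 457 in SKHEP1. GPX6, the fifth of them, had 0 counts in both libraries. GPX1 and GPX4 alone came to 591 TPM in HepG2 and 456 TPM in SKHEP1, so that GPX2 and GPX3 made up most of the difference. The family also has 3 members with cysteine in place of selenocysteine. GPX8, an enzyme of the endoplasmic reticulum, had 4 counts in HepG2 and 1986 in SKHEP1, 545-fold higher in SKHEP1 (213 to 2003) and 348-fold by the deposited TPM values. GPX7, its close relative in the same compartment, had 180 counts in HepG2 and 66 in SKHEP1. It was 2.48-fold higher in HepG2 (1.86 to 3.35). GPX5 had 0 counts in both. Of the 2 cysteine enzymes compared, 1 was thus at least 4-fold higher in SKHEP1 and none in HepG2, beside 16.6% and 13.3% of all genes compared. Their log2 ratios were -9.09 for GPX8 and 1.31 for GPX7, so the median of -3.89 describes neither.

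Among the 10 genes, the small thioredoxin-like selenoproteins SELM and SEPW1 were lower in HepG2, by unequal amounts. SELM, a protein of the endoplasmic reticulum, had 16 counts in HepG2 (9.15 to 26.0) and 197 in SKHEP1 (170 to 227). It was 13.5-fold higher in SKHEP1 (8.12 to 24.1), and no other of the 10 genes was past 4-fold in that direction. SEPW1, a small cytosolic protein, had 501 counts in HepG2 and 557 in SKHEP1, or 22.6 CPM in HepG2 (20.6 to 24.7) and 27.6 CPM in SKHEP1 (25.3 to 30.0). Its ratio was 0.819 (0.725 to 0.926), an interval that does not reach 1 for counting error alone.

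The 3 deiodinases, which activate or inactivate thyroid hormones, each reached 10 counts in at most 1 line. DIO1, the liver and kidney enzyme that forms the active hormone T3, had 853 counts in HepG2 and 0 in SKHEP1. Its level of 38.5 CPM in HepG2 (35.9 to 41.1) was at least 259-fold higher than the floor in SKHEP1, with an exact 95% lower limit of 210. By the deposited TPM values with the same floor the log2 ratio of DIO1 was 6.79 in place of 8.02, since the table lists a length of 781 bases for it in SKHEP1, where no read chose the isoforms, and 1523 bases in HepG2. DIO3, which inactivates thyroid hormones, had 2 counts in HepG2 and 3 in SKHEP1. Both values lie at or under the floor, and no ratio is given. DIO2, the other activating enzyme and not among the 10 genes, had 1 count in HepG2 and 89 in SKHEP1, 97.7-fold higher in SKHEP1 (17.1 to 3902). By the deposited TPM values it was 8.03-fold higher in SKHEP1, at 0.31 TPM in HepG2 and 2.49 TPM in SKHEP1, with the HepG2 length of 417 bases resting on 1 read and a length of 3002 bases in SKHEP1. DIO1 reached 44.5 TPM in HepG2.

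SEPHS2 makes selenophosphate, the selenium donor for selenocysteine, and is itself a selenoprotein. It had 5644 counts in HepG2 and 1341 in SKHEP1, or 254 CPM in HepG2 (248 to 261) and 66.4 CPM in SKHEP1 (62.9 to 70.0). The ratio was 3.83 (3.61 to 4.07), just inside the 4-fold limit. SEPHS1, a homologue with another residue at that site, lay within 4-fold, at 2572 counts in HepG2 and 1848 in SKHEP1.

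None of the other genes that insert selenocysteine or supply selenium differed as much as SEPHS2 did. Of the 15 genes of that list, 14 were compared and all 14 lay within 4-fold, where 70.1% of all genes compared did, with a median log2 ratio of 0.06 beside -0.03 for all genes. The elongation factor EEFSEC was 2.46-fold higher in HepG2 (2.06 to 2.96), the selenocysteine lyase SCLY 2.40-fold (2.03 to 2.85) and the stem-loop binding protein SECISBP2 2.13-fold (1.90 to 2.39). The tRNA-modifying enzyme ALKBH8 was 2.11-fold higher in SKHEP1 (1.86 to 2.39). LRP8, a receptor through which cells take up selenoprotein P, had 573 counts in HepG2 and 605 in SKHEP1. EIF4A3, which binds some of the stem-loops, had a ratio of 1.26.

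Among the other 15 selenoprotein genes most lay within 4-fold. GPX6 and SELV had 0 counts in both lines. Of the 13 others compared, MSRB1 was at least 4-fold higher in HepG2, DIO2 in SKHEP1, and 11 lay within 4-fold. The shares over all genes compared were 13.3%, 16.6% and 70.1%. The median log2 ratio of the 13 was -0.27, beside -0.03 for all genes compared. MSRB1, which repairs oxidised methionine, had 1760 counts in HepG2 and 197 in SKHEP1, 8.14-fold higher in HepG2 (7.02 to 9.48). TXNRD1, the cytosolic thioredoxin reductase, had 6907 counts in HepG2 and 23331 in SKHEP1. It was 3.71-fold higher in SKHEP1 (3.61 to 3.81). TXNRD2, the mitochondrial form, had 448 counts in HepG2 and 1330 in SKHEP1. It was 3.26-fold higher in SKHEP1 (2.93 to 3.64), but 5.49-fold by the deposited TPM values, which use a length of 1826 bases in HepG2 and 1195 bases in SKHEP1.

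EPT1, a phospholipid-synthesising selenoprotein of the endoplasmic reticulum, was 2.58-fold higher in HepG2 (2.44 to 2.74). SEPN1, another protein of that compartment, was 2.34-fold higher in SKHEP1 (2.17 to 2.52), and C11orf31, the nuclear selenoprotein H, 1.81-fold (1.56 to 2.09). SEP15 and SELK, of the same compartment as SEPN1, had ratios of 1.01 (0.961 to 1.07) and 1.08 (0.949 to 1.23). Of all 25 human selenoprotein genes, 22 were compared. HepG2 was at least 4-fold higher for 5 of them, SKHEP1 for 2, and 15 lay within 4-fold, beside 13.3%, 16.6% and 70.1% of all genes compared. Their median log2 ratio was 0.07 and their mean 1.51.

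**Figure D2:**
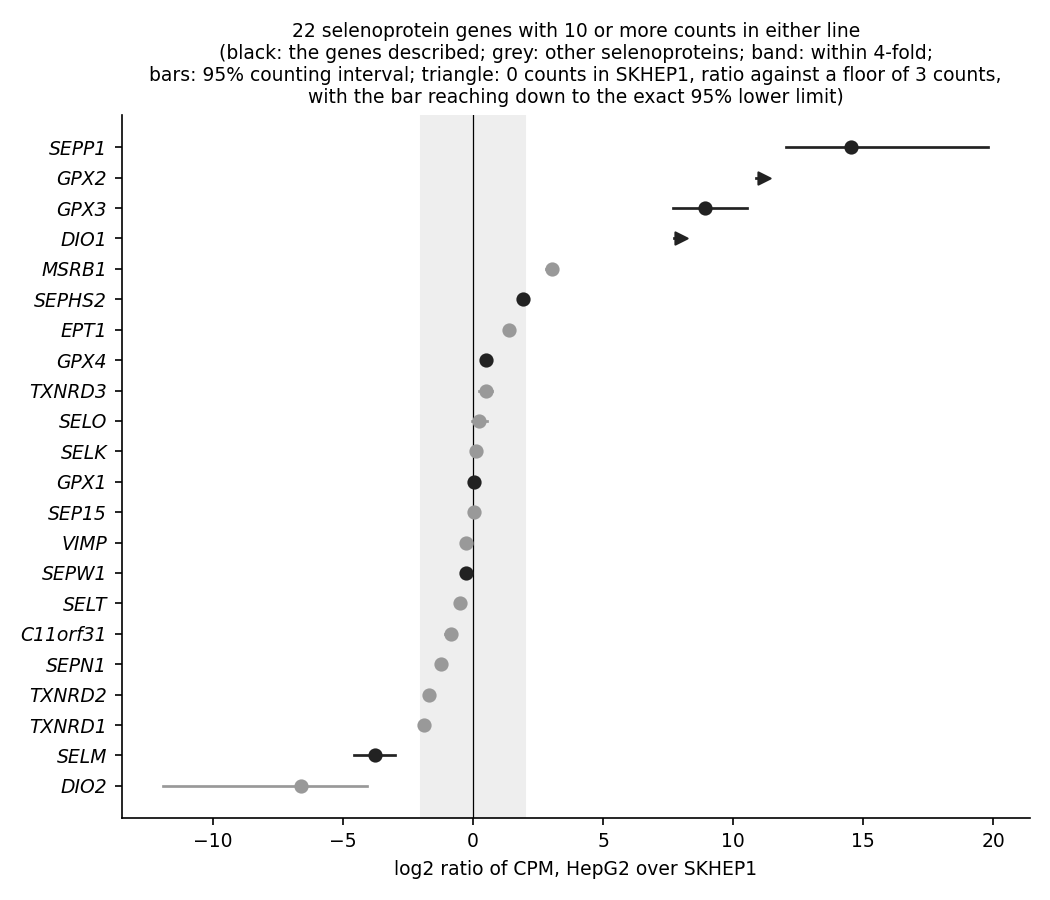
log2 ratio of CPM, HepG2 over SKHEP1, for the 22 selenoprotein genes with 10 or more counts in either line, sorted, with 95% counting intervals and a grey band that marks the range within 4-fold. SEPP1, GPX2, GPX3 and DIO1 lie far to the right at 8.02 or more, DIO2 and SELM far to the left, and SEPHS2 at the right edge of the band at 1.94.

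The share of each gene in the summed selenoprotein mRNA differed between the lines. Summed over the 25 genes, the deposited values came to 3393 TPM in HepG2 and 1989 TPM in SKHEP1, a ratio of 1.71. SEPP1 took 26.5% of this sum in HepG2 and 0.00704% in SKHEP1. GPX2 took 19.99% in HepG2 and had no reads in SKHEP1. GPX4 took 13.4% in HepG2 and 15.97% in SKHEP1. TXNRD1 took 5.34% in HepG2 and 34.2% in SKHEP1, where it was the largest contributor. The 3 thioredoxin reductases together made up 6.15% in HepG2 and 39.9% in SKHEP1. Without SEPP1 and GPX2, the other 23 genes summed to 1816 TPM in HepG2 and 1989 TPM in SKHEP1. SEPP1 and GPX2 were the largest contributors in HepG2, so leaving them out was bound to lower the HepG2 sum. TXNRD1, the largest in SKHEP1, was kept, so the nearness of these sums is not a result about the other genes.

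**Figure D3:**
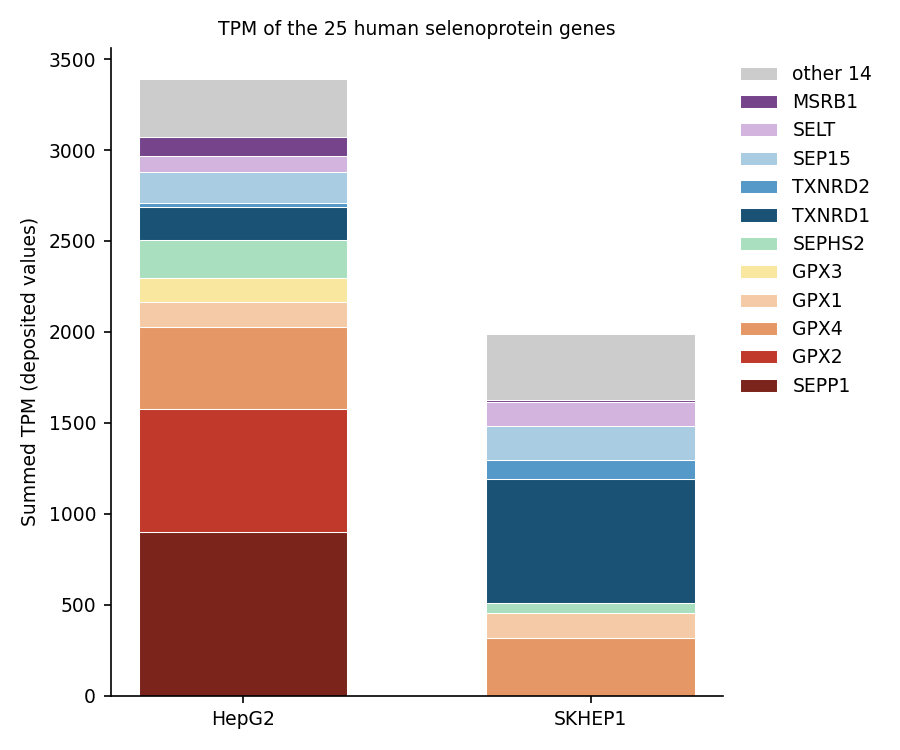
Deposited TPM of the 25 human selenoprotein genes, stacked for HepG2 (left) and SKHEP1 (right), with 1 library per line. SEPP1 and GPX2 form the lower part of the HepG2 bar at 898 and 678 TPM and are not visible in SKHEP1, where TXNRD1 is the tallest segment at 681 TPM.

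Promoter windows from RefSeq (GRCh38.p14, 250 bases before to 50 after a gene start) matched 9 of the 10 genes. SELM, the only one at least 4-fold higher in SKHEP1, had no window, so that direction cannot be compared. Among the genes at least 4-fold higher in HepG2, CpG dinucleotides numbered 4 in GPX2, 1 in SEPP1 and 3 in DIO1, but 21 in GPX3. The median over all 35116 windows was 14, and 29.6% held 4 or fewer. The genes within 4-fold held 18 in SEPHS2, 23 in GPX1, 26 in SEPW1 and 39 or more in each of the 3 GPX4 windows, and DIO3, not expressed in either line, held 28. The windows were searched on both strands for the antioxidant response element core (TGACNNNGC), HNF4 (CAAAGTCCA), FOXO (GTAAACA) and TCF/LEF (ATCAAAG) sites and the TATA box (TATAAA). The windows of the SEPP1 and GPX2 genes, which had the largest log2 ratios, are shown 5′ to 3′ on the gene's strand with the matches in capitals.
GPX2, chr14:64942696-64942995, minus strand: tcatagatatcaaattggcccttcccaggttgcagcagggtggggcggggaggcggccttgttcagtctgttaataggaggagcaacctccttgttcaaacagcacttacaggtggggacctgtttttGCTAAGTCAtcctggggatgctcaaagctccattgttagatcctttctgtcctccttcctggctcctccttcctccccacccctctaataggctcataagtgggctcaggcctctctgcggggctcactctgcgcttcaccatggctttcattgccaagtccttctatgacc
SEPP1, chr5:42811843-42812142, minus strand: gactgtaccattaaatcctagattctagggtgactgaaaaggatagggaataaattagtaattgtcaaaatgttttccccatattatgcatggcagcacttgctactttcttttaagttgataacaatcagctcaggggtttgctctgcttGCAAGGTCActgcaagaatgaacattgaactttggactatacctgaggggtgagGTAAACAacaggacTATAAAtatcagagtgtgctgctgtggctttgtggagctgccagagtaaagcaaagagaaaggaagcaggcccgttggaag

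The first capitals in each of these windows match the antioxidant response element core read on the other strand, a sequence present in 13.35% of all windows. In SEPP1 they are followed by a FOXO match, present in 3.42% of windows, and a TATA box, present in 11.53%. No 2 of these matches overlap. No listed motif was in the windows of GPX3 and DIO1, and the windows of DIO3 and SEPHS2 held a TATA box. HNF4 and TCF/LEF sequences were in none of the matched windows, and 0.38% and 2.62% of all windows hold them. These matches describe letters, not binding.

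The genes closest to SEPP1 and GPX2 in level were sought among all genes compared, by distance in log2(TPM + 1) over the 2 libraries. For SEPP1 they were NQO1, FGA and ORM2, all with 0 counts in SKHEP1 and between 866 and 939 TPM in HepG2. ORM2 has a near copy and its counts are uncertain. For GPX2 they were AGT, FGB and ALDH1A1, between 642 and 673 TPM in HepG2 and at 4 or fewer counts in SKHEP1. With 2 libraries, likeness of this kind means only similar levels in both.

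Glutathione genes, which supply the cofactor of the peroxidases, were counted in the same way. Of 20 genes compared, HepG2 was at least 4-fold higher for 3, beside 13.3% of all genes, SKHEP1 for 1, beside 16.6%, and 16 lay within 4-fold, beside 70.1%. The median log2 ratio was 0.28. GSR, which regenerates reduced glutathione, was 5.23-fold higher in HepG2 (4.88 to 5.61). GGT1, which breaks down extracellular glutathione and shares reads with near copies, was 41.0-fold higher in HepG2 and is uncertain. CHAC1, which degrades glutathione inside cells, had 1 count in HepG2 and 112 in SKHEP1. CTH, an enzyme of cysteine synthesis, was 3.05-fold higher in HepG2 (2.33 to 4.04). GCLM, the modifier subunit of the enzyme that starts glutathione synthesis, and the glutaredoxin GLRX had ratios of 0.986 and 0.979.

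A further list held enzymes that remove peroxides or superoxide without selenium, and related redox genes such as NQO1, HMOX1, TXN and TXNIP. Of its 15 genes compared, HepG2 was at least 4-fold higher for 2, beside 13.3% of all genes. SKHEP1 was at least 4-fold higher for none, beside 16.6%, and 13 lay within 4-fold, beside 70.1%. The median log2 ratio of the 15 genes was 0.35. The quinone reductase NQO1 had 13009 counts in HepG2 and 0 in SKHEP1. Against the floor it was at least 3950-fold higher in HepG2. The peroxiredoxin PRDX2 had 4514 counts in HepG2 and 199 in SKHEP1, 20.7-fold higher in HepG2 (17.9 to 23.9). Catalase (CAT) was 2.61-fold higher in HepG2 (2.42 to 2.81) and PRDX1 1.89-fold (1.84 to 1.93). TXN2 and TXNIP had ratios of 0.973 and 1.00.

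**Figure D4:**
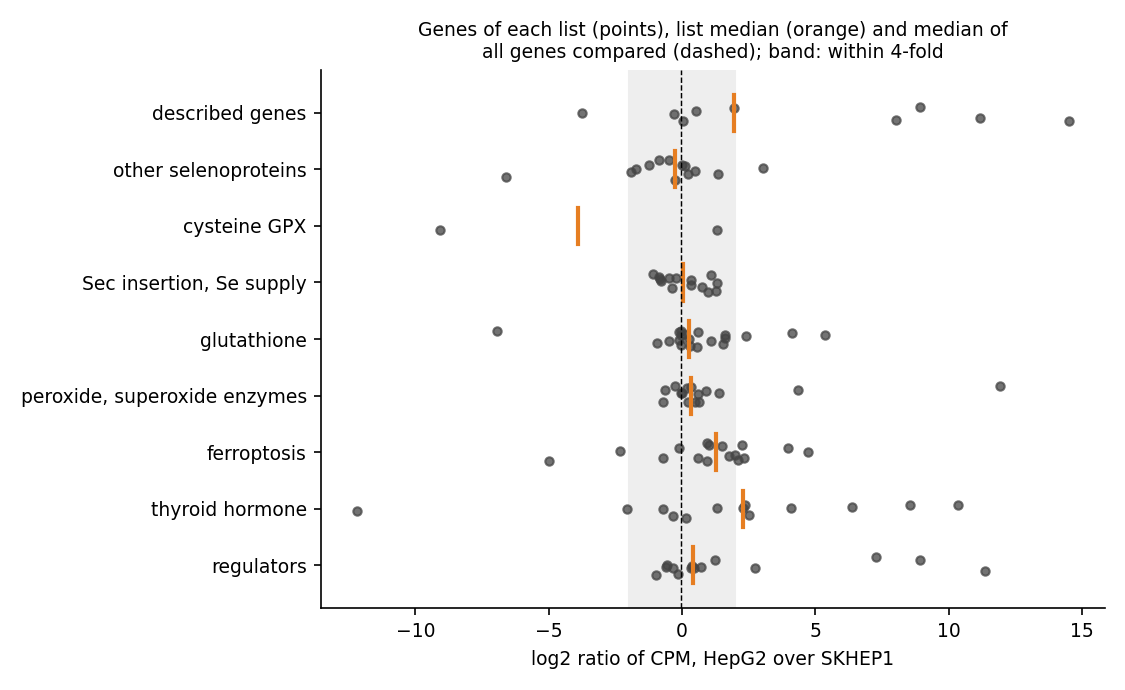
log2 ratio of CPM, HepG2 over SKHEP1, for the genes of each list with 10 or more counts in either line (points), with each list's median in orange, the median of all genes compared dashed at -0.03 and the range within 4-fold in grey. The 9 genes described spread from -3.76 to 14.52, while all 14 compared genes of selenocysteine insertion lie inside the band.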

How the data were processed

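Gene tables of 1 HepG2 and 1 SKHEP1 library were used, with groups from the tag that names the line. The protocols in the labels describe column-purified RNA and stranded libraries of mRNA. The submitters' processing notes name cutadapt, STAR, RSEM, DESeq2 and hg19. The sources used here give no version, annotation or strand setting, which leaves genes that overlap on opposite strands uncertain. The deposited tables hold expected counts, TPM, FPKM and isoform-weighted lengths, per the file headers.

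Expected counts were rounded and scaled to CPM of the TMM effective library size (edgeR 4.0.16, R 4.3.3), with factors of 0.987 for HepG2 and 1.01 for SKHEP1. A gene was compared if either library held at least 10 counts, and 4-fold was the limit for calling it higher. A count of 0 was replaced by a floor of 3 counts, and other low counts were used as they are. A ratio given as at least a fold is such a floor ratio, not a 95% limit. Intervals are exact Poisson (level) and exact conditional Clopper-Pearson (ratio). Nothing was tested, as neither line has a replicate. The calculation was tested on simulated counts. The members and all lists were chosen with earlier results of these data known. The lists were written from textbook knowledge. They were the 25 human selenoprotein genes, cysteine peroxidases, selenocysteine insertion and selenium supply, and glutathione. The rest were other peroxide and superoxide enzymes with related redox genes, ferroptosis, thyroid hormone, and regulators.

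Named were all 10 members. Of the other selenoproteins, the 6 with the largest absolute log2 ratio and 100 counts were named, TXNRD1 among them. SEP15 and SELK, with the smallest in that list, were added beyond the rule. Of each other list up to 4 such genes were named, with up to 2 of the smallest ratio and 100 counts in both lines, and so were the 3 genes nearest in level to SEPP1 and GPX2. Some genes that this rule names are not reported here. DIO2, GPX5, GPX6, SELV, SEPHS1, CHURC1, GPX1P1, NFE2L2, ALOXE3, THRB and AIFM2 were named after their values were seen, as were the promoter motifs. Sequences come from GENCODE release 29 (GRCh38) and RefSeq (GRCh38.p14), matched by stable identifier or symbol, and no coordinate was carried between builds. The software was Python 3.11.15, scipy 1.17.1, pandas 2.3.3, numpy 2.4.6 and matplotlib 3.10.9.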

Additional observations from a re-analysis of the deposited data

How the results depend on the processing

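The alternatives were total counts, DESeq2 1.42.0 size factors, deposited TPM or FPKM values, HepG2 thinned to the SKHEP1 depth, a prior count of 2, counts left unrounded, a filter at 50 or at 1 count, a 2-fold or an 8-fold limit, and a 4-fold limit on the interval bound nearest 1. A floor of 3 that also replaces counts of 1 and 2 was added after the data were seen. Under all of these, 4 members were at least 4-fold higher in HepG2 (5 at a 2-fold limit) and 1 in SKHEP1. Over the 25 selenoprotein genes, 7 in place of 5 were higher in HepG2 and 5 in place of 2 in SKHEP1 at a 2-fold limit, and 3 in SKHEP1 with TPM or FPKM. With TPM values 12.7% of all genes compared were at least 4-fold higher in HepG2 and 16.2% in SKHEP1, and FPKM gave 12.8% and 16.2%. Shares of all genes at a 2-fold limit are not given here, so the 2-fold counts have no such comparison. The selenoprotein genes had a mean log2 ratio of 1.51 against a median of 0.07. Their sum was 1.53-fold higher in HepG2 by CPM against 1.71-fold by TPM. The log2 ratio of SEPP1 ranged from 12.65 to 14.56 and that of SEPHS2 from 1.90 to 1.98. GPX1 ranged from -0.01 to 0.08, so it has no direction. No paired analysis was possible because each line has 1 library. At 0 to 5 counts in SKHEP1, depth limits the ratios of SEPP1, GPX2, GPX3 and DIO1 to lower bounds or wide intervals.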

Other observations

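Genes of ferroptosis and lipid peroxidation, the process that GPX4 opposes, were mixed. Of 21 genes, 16 were compared. HepG2 was at least 4-fold higher for 6, beside 13.3% of all genes compared, SKHEP1 for 2, beside 16.6%, and 8 lay within 4-fold, beside 70.1%. Of those called higher in HepG2, AIFM2 lay at the limit, with a ratio of 4.01 (3.69 to 4.36) and of 3.93 by the deposited TPM values. The median log2 ratio was 1.27, beside -0.03 for all genes compared. The iron exporter SLC40A1 had 1996 counts in HepG2 and 69 in SKHEP1, 26.3-fold higher in HepG2. GCH1, which starts synthesis of the antioxidant tetrahydrobiopterin, had a ratio of 15.6 (11.5 to 21.9), and the reductase POR had one of 5.07 (4.72 to 5.45). The heat shock protein gene HSPB1 was 5.03-fold higher in SKHEP1 (4.52 to 5.61), and the lipoxygenase ALOXE3 had 2 counts in HepG2 and 58 in SKHEP1. The cystine carrier SLC7A11 and the transferrin receptor TFRC lay within 4-fold, at ratios of 0.921 and 1.52.

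Genes of thyroid hormone transport and response, the system of the deiodinases, were split. Of 15 genes, 13 were compared. HepG2 was at least 4-fold higher for 7, SKHEP1 for 2, and 4 lay within 4-fold, beside 13.3%, 16.6% and 70.1% of all genes compared. The median log2 ratio was 2.28 and the mean 1.75. The thyroid hormone carriers of plasma SERPINA7 and TTR reached 4344 and 1237 counts in HepG2, against 0 for both in SKHEP1. The membrane transporter SLC16A10 reached 363 counts in HepG2, against 4 in SKHEP1. The receptor THRB reached 997 counts in HepG2, against 176 in SKHEP1. THRA reached 626 in HepG2, against 508 in SKHEP1, and lay within 4-fold, as did the corepressor NCOR1. Of 14 transcription regulators, HepG2 was at least 4-fold higher for 4, SKHEP1 for none, and 10 lay within 4-fold, beside the same shares of all genes. Their median log2 ratio was 0.41 and their mean 2.20. HNF4A, a hepatocyte factor, reached 8689 counts in HepG2, against 0 in SKHEP1. PPARGC1A reached 341 counts in HepG2, against 2 in SKHEP1, and FOXO1 was 6.77-fold higher in HepG2 (5.50 to 8.42). MTF1 and HIF1A lay within 4-fold. NFE2L2, the activator of antioxidant genes, had 5376 counts in HepG2 and 2050 in SKHEP1. It was 2.39-fold higher in HepG2 (2.27 to 2.51) and so lay within 4-fold. Whether it has a part in the levels of the genes described was not tested.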
